A study of Mus musculus with 6 samples.

Results

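Complement is a set of blood and tissue proteins that tag targets and recruit phagocytes. C1q, built from the products of C1qa, C1qb and C1qc, opens the classical pathway, C4 and C3 are then cleaved in sequence, and the fragments are read by receptors on phagocytes. In the postnatal brain, C1q and the complement receptors are known mainly from microglia and other macrophages, C4 and C3 can be made by astrocytes as well, and the tagging of synapses for removal by microglia is the best studied use of the cascade there. The 9 genes described here, C1qa, C1qb, C1qc, C4b, C3, Serping1, C3ar1, C5ar1 and Itgam, were taken by symbol from a table of 24421 genes, and all 9 were found.

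The libraries were made from mCherry-positive cells sorted from mouse cortex at postnatal day 21. All animals were CD51-Flp mice that had received AAV-GFAP-FSF-hM3D-mCherry after birth, a virus in which a GFAP promoter drives hM3D and mCherry once Flp has acted. hM3D is a Gq-coupled designer receptor, and CD51 is integrin alpha V. The CNO group (CNO 1, 2 and 3) was given clozapine-N-oxide, the ligand of that receptor, 2 times per day from day 7 to day 21, and the saline group (saline 3, 4 and 5) was given saline on the same schedule. Both groups carried the receptor, no group received CNO without it, and the labels do not say whether a library came from 1 animal or from several.

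Values are normalized counts, reads per gene that the authors divided by 1 size factor per library. The shallowest library, CNO 1, held 3908076 recovered reads, and the remaining 5 held 12010901 to 19224186. Each read therefore counted for 4.23 normalized counts in CNO 1, and for 0.503 to 0.970 elsewhere. Summed over all genes, normalized counts came to 1.65e+07, 1.42e+07 and 1.66e+07 in CNO 1, 2 and 3. The sums were 9.86e+06, 9.61e+06 and 9.59e+06 in saline 3, 4 and 5. An equal share of reads thus gave a higher normalized count in CNO than in saline. Low and middling genes dropped to 0 more often in the CNO libraries. For the 3203 genes averaging 100 to 300, the share without a read was 34.1%, 3.56% and 12.1% in CNO 1, 2 and 3, against 0.687% to 1.22% in the saline libraries. Xist, read from the inactive X of females, had 25.4, 21466 and 35033 normalized counts in CNO 1, 2 and 3, against 216, 35117 and 885 in saline 3, 4 and 5. Y-linked Ddx3y had 2417, 6.66 and 1.94 in CNO, against 1452, 213 and 1955 in saline. Xist was thus high in 2 of 3 CNO libraries and in 1 of 3 saline libraries, saline 4, which held Ddx3y as well, and the part of sex in the results was not tested. The sort was labelled astrocyte, and the 12 astrocyte markers were all detected, at 1.01% to 3.09% of reads in CNO and 1.82% to 2.64% in saline. All 12 homeostatic microglia markers were detected too, at 0.429% to 1.08% of reads in CNO and 1.05% to 1.54% in saline. All 8 border macrophage markers were present at 0.367% to 0.605% in CNO and 0.283% to 0.452% in saline. The 10 oligodendrocyte markers took 11.1% to 24.5% in CNO and 5.32% to 7.81% in saline. The neutrophil genes S100a8, S100a9, Retnlg and Camp were at 0 in every library.

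None of the 9 complement genes passed the test between CNO and saline. The test was limma on log2 of the normalized count plus a pseudocount of 1, over the 13028 genes that averaged at least 10, with Benjamini-Hochberg adjustment at 0.05. It called 0.0154% of all tested genes as higher in CNO and 0% as lower. At an unadjusted p under 0.05, 0 members were higher (2.28% of all tested genes) and 1, C3, was lower (7.25% of all tested genes). edgeR called 0 members with the same genes (0% of all genes higher and 0% lower) and 0 with no filter (0.0785% higher and 0.0181% lower). DESeq2 called 1 member, again C3, as lower in CNO (1.35% of all genes) and 0 as higher (0.507% of all genes). The median log2 fold change of the 9 genes was -0.20, beside -0.89 over all tested genes. In bulk samples such as these, fewer cells of a type and less RNA per cell cannot be told apart.

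**Figure D1:**
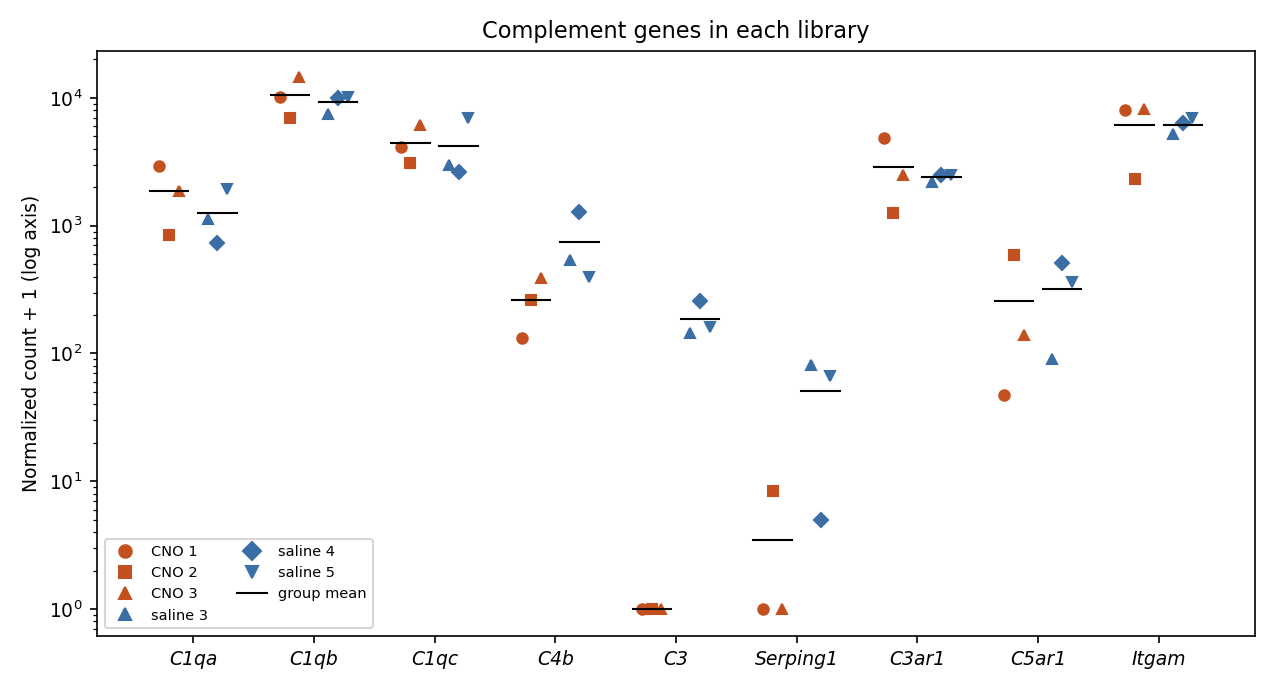
Normalized counts plus 1 (vertical log axis) of the 9 complement genes in each library, CNO libraries left and saline libraries right within a gene, with black bars at the group means. C3 lies at 0 in all 3 CNO libraries and at 143 to 258 in saline, while the groups of the 3 C1q genes and of Itgam overlap.

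The regulatory sequence just before the start of a gene is shown for 3 members that stand for different patterns, C1qb as an abundant C1q chain, Itgam as an abundant receptor chain, and C3, which had no reads in CNO. RefSeq promoters on GRCm38.p6 were found for 6 of the 9 genes, C1qb, C1qc, C3ar1, C5ar1, Itgam and C3. Each line gives the 250 bases before the start, 5′ to 3′ on the strand of the gene. They lie at chr4:136886201-136886450 on the minus strand for C1qb, at chr7:128062390-128062639 on the plus strand for Itgam and at chr17:57228137-57228386 on the minus strand for C3. Capitals in C1qb and Itgam mark GAGGAA, a core bound by the myeloid factor PU.1, or its reverse complement TTCCTC. Capitals in C3 mark TTNNGNAA, a loose form of the site of C/EBP factors, or its reverse complement TTNCNNAA.
C1qb: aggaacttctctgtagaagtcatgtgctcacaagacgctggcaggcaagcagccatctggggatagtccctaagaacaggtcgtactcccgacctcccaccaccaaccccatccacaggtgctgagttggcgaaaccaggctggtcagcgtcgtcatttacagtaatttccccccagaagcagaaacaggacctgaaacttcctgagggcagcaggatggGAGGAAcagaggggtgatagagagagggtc
Itgam: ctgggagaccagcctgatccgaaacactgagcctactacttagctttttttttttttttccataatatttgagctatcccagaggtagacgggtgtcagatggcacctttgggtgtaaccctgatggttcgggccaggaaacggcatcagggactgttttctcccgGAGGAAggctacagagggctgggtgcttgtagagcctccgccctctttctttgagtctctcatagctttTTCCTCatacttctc
C3: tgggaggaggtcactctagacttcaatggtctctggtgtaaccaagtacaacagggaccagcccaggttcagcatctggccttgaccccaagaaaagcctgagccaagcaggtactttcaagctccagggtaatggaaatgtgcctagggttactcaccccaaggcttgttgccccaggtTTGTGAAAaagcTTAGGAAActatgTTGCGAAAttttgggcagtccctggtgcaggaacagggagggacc

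GAGGAA was found on either strand 1 time in C1qb, 1 time in C1qc and 2 times in Itgam, and 0 times in C3ar1, C5ar1 and C3. Of all 32851 promoter windows of the same length, 23.3% held it. TTNNGNAA was found 3 times in C3, 1 time each in C1qc, C5ar1 and Itgam, and 0 times in C1qb and C3ar1, and 36.8% of all windows held it. The RefSeq starts used for these windows can differ from the GENCODE gene positions given below. By the GENCODE positions, the TTNNGNAA matches of C1qc and C5ar1 lie inside those genes. The 2 motifs did not overlap in these windows. A match in a window is a string of letters and not a measured binding site.

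The 3 chains of C1q, the recognition molecule of the classical pathway, were abundant in both groups. C1qa (chromosome 4 at 136895917 to 136898803, GRCm38, GENCODE, as for all gene positions here) had 2912, 846 and 1868 normalized counts in CNO 1, 2 and 3, against 1129, 731 and 1934 in saline 3, 4 and 5. The groups overlapped, with the highest value in CNO 1 and the lowest in saline 4. The log2 fold change of C1qa was 0.51 ± 0.66 (SE, 95% interval -0.93 to 1.95, limma adjusted p = 0.769). C1qb (136880129 to 136886187 on the same chromosome) had 10117, 6904 and 14477 in CNO, against 7535, 9977 and 10153 in saline. The saline values lay inside the range of the CNO values. Its log2 fold change was 0.14 ± 0.37 (interval -0.67 to 0.94, limma adjusted p = 0.897). C1qc (136889804 to 136893065) had 4091, 3069 and 6178 in CNO, against 2994, 2615 and 6920 in saline, again with overlap. Its log2 fold change was 0.17 ± 0.50 (interval -0.92 to 1.26, limma adjusted p = 0.904). The sign of all 3 depended on the scaling. Scaled to the total reads of each library, their log2 fold changes were -0.19 for C1qa, -0.56 for C1qb and -0.53 for C1qc.

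Per kilobase of exon, C1qb was the most abundant of the 9 genes, at 9650 ± 3494 normalized counts in CNO and 8475 ± 1345 in saline (SD, n = 3 each). C1qc followed at 2302 ± 821 in CNO and 2163 ± 1234 in saline, and C1qa stood at 1803 ± 993 in CNO and 1216 ± 589 in saline. On this scale C1qb made up 65.4% to 72.7% of the summed C1q chains in CNO and 63.2% to 81.7% in saline. C1qc made up 14.9% to 18.2% in CNO and 12.1% to 24.3% in saline. C1qa took 19.7% in CNO 1 and 9.30% and 9.81% in the other CNO libraries, against 6.26% to 12.6% in saline. C1qa was thus higher relative to its partner chains in CNO 1, the shallowest library, than in any other. Next in level came Itgam, at 1227 ± 662 per kilobase in CNO and 1225 ± 171 in saline, and C3ar1, at 669 ± 430 in CNO and 557 ± 38.5 in saline. Below them were C4b and C5ar1, with C4b at 45.8 ± 22.7 in CNO and 130 ± 83.3 in saline and C5ar1 at 100.7 ± 114 in CNO and 124 ± 82.2 in saline. C3 and Serping1 were lowest, with C3 at 0 in CNO and 36.3 ± 12.1 in saline and Serping1 at 1.06 ± 1.84 in CNO and 21.5 ± 17.4 in saline. Among neighbours in this order, the library values of C1qc, Itgam and C1qa overlapped in both groups, as did those of C4b and C5ar1. Those of C3 and Serping1 overlapped in saline. C1qb lay above C1qc in every library, and C3ar1 above C4b.

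C1q levels were also read against the macrophage markers of the same library, a ratio that a single scaling factor per library leaves as it is. Quantile scaling is not of that kind, and the ratios were not computed under it. The summed C1q chains amounted to 15.2%, 17.7% and 12.5% of the summed homeostatic microglia markers in CNO 1, 2 and 3, against 11.1%, 13.1% and 12.9% in saline 3, 4 and 5. CNO 3 lay within the saline range. Against border macrophage markers, genes of the macrophages of the meninges and vessels, the same sum amounted to 26.7%, 20.7% and 22.4% in CNO, against 41.8%, 30.7% and 61.2% in saline, without overlap. The border macrophage markers themselves summed to 64158, 52156 and 100436 normalized counts in CNO, against 27866, 43429 and 31035 in saline. As a share of reads they overlapped, at 0.367% to 0.605% in CNO and 0.283% to 0.452% in saline. The microglia markers summed to 112841, 60991 and 179758 in CNO, against 104590, 101340 and 147220 in saline, with overlap. Of these 12 markers, 0 passed limma, and 1, Sall1, was lower at an unadjusted p under 0.05 (7.25% of all tested genes). Sall1 had a log2 fold change of -1.79 ± 0.61 (limma adjusted p = 0.488). The log2 fold change was below 0 for 10 of the 12, beside 8893 of all 13028 tested genes. All of the 12 but Tmem119, at 922, averaged above 1000 normalized counts, where fewer tested genes were below 0. The share below 0 was 35.5% of tested genes averaging 1000 to 3000, 21.9% at 3000 to 10000 and 8.41% from 10000 up. The cause of this difference from genes of like level was not tested. Csf1r, the most abundant of the 12, averaged 41370 normalized counts, with a log2 fold change of 0.12 ± 0.37. Of the 8 border macrophage markers, 0 passed limma and 4 were higher at an unadjusted p under 0.05 (2.28% of all tested genes). The log2 fold change was above 0 for 7, beside 4135 of all 13028 tested genes. All of the 8 but Cbr2 and Ms4a7, at 834 and 793, averaged above 1000, where most tested genes were above 0 too. Median log2 fold changes of all tested genes were 0.29 at 1000 to 3000, 0.46 at 3000 to 10000 and 0.60 from 10000 up. Mrc1, a mannose receptor of these cells, had a log2 fold change of 1.08 ± 0.33 (limma adjusted p = 0.488) and Pf4, a chemokine, 1.60 ± 0.48 (limma adjusted p = 0.488). Mrc1 was the most abundant of the 8, averaging 28084 normalized counts, and so weighed most in their sum. Ms4a7 was the marker below 0, at -1.41 ± 1.62 (limma adjusted p = 0.744), and Cbr2 and Cd163 had 0.15 ± 0.68 and 0.50 ± 0.66. Against both lists together, the C1q sum came to 9.67%, 9.56% and 8.04% in CNO and to 8.80%, 9.20% and 10.7% in saline, with overlap.

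**Figure D2:**
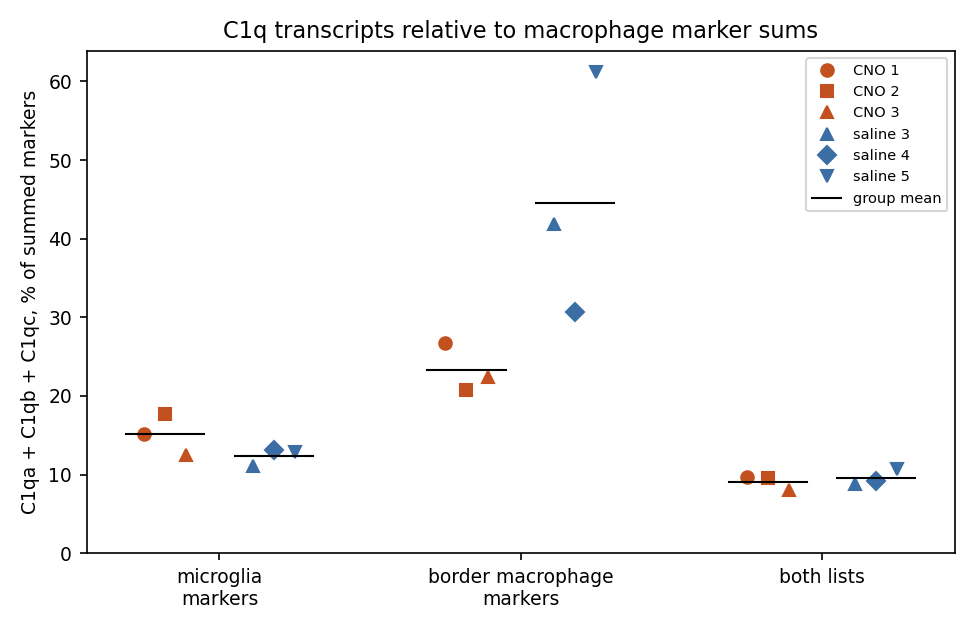
Summed C1qa, C1qb and C1qc as a percentage of the summed markers of microglia, of border macrophages and of both lists (vertical axis), with CNO libraries left and saline libraries right in each pair and black bars at the group means. The pairs overlap against microglia markers and against both lists, and separate against border macrophage markers, at 20.7% to 26.7% in CNO and 30.7% to 61.2% in saline.

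C4b and C3, the substrates of the cascade, had lower values in each CNO library than in any saline library. C4b (chromosome 17 at 34728380 to 34743882) encodes the C4 protein that C1 cleaves. It had 131, 261 and 390 normalized counts in CNO 1, 2 and 3, against 541, 1280 and 394 in saline 3, 4 and 5. Every CNO library lay below every saline library, but CNO 3 and saline 5 differed by little. The group means were 261 ± 129 in CNO and 738 ± 475 in saline (SD, n = 3 each). The log2 fold change was -1.45 ± 0.90 (interval -3.43 to 0.54, limma adjusted p = 0.603). C4b has a close copy, C4a, on the same chromosome, and reads could be shared between them. C4b took 89.9% to 93.1% of their summed normalized counts in CNO and 91.6% to 97.0% in saline, so the balance between the copies overlapped between groups. C3 and C4b were the 2 members whose groups did not overlap with CNO lower, where 12.5% of all tested genes did the same, and 0 members lay wholly higher, where 4.57% of all tested genes did.

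C3 (chromosome 17 at 57203970 to 57228136) encodes the central component on which all pathways converge. It had 0 reads in CNO 1, 2 and 3, against 252, 322 and 316 reads in saline 3, 4 and 5. The saline libraries stood at 143, 258 and 159 normalized counts. With every library thinned to 3908076 reads, C3 had 51, 98 and 63 reads in saline, against 0 in each CNO library. Thinning evens out depth only and cannot change a count of 0. At that equal depth, 8618, 11988 and 9829 genes had reads in CNO 1, 2 and 3, against 13489, 13883 and 13427 in saline 3, 4 and 5. With a floor of 3 reads per library, which covers counting error only, C3 was at least 31.4-fold lower in CNO. The fitted log2 fold change of -7.50 ± 1.85 depends on the pseudocount and is no bound (limma adjusted p = 0.488). DESeq2 called the difference (adjusted p = 1.37e-04) and edgeR did not (adjusted p = 0.535 with the same genes and 0.219 with no filter). Zeros of this kind were not particular to C3. Of the 3489 tested genes with a saline mean of 100 to 300 normalized counts, 51, or 1.46%, had 0 reads in all 3 CNO libraries. The part of these dropouts in the result for C3 was not tested.

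Serping1 (chromosome 2 at 84765387 to 84775444) encodes C1 inhibitor, which stops the proteases of the C1 complex. It had 0, 10 and 0 reads in CNO 1, 2 and 3, against 141, 5 and 131 reads in saline 3, 4 and 5. On the normalized scale these were 0, 7.40 and 0 in CNO, against 79.9, 4.002 and 65.9 in saline. The groups overlapped, since saline 4 lay below CNO 2. The log2 fold change was -3.89 ± 1.97 (interval -8.21 to 0.44, limma adjusted p = 0.550). It ran from -4.52 to -0.85 over the other methods and settings and from -5.18 (without saline replicate 4) to -3.17 (without saline replicate 3) with 1 library left out, in each with the sign below 0.

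The receptors for the cleaved fragments were read in every library. C3ar1 (chromosome 6 at 122847138 to 122856161), the receptor for the C3a fragment, had 4894, 1250 and 2492 normalized counts in CNO 1, 2 and 3, against 2206, 2480 and 2505 in saline 3, 4 and 5. CNO 1 and CNO 2 lay on either side of all saline values. Its log2 fold change was 0.05 ± 0.56 (interval -1.18 to 1.28, limma adjusted p = 0.978), and scaled to total reads it was -0.64. C5ar1 (chromosome 7 at 16246743 to 16259540), the receptor for C5a, had 46.5, 592 and 138 in CNO, against 90.1, 507 and 361 in saline. The CNO libraries spread widely, with 11 reads in CNO 1 and 800 in CNO 2, and the groups overlapped. Its log2 fold change was -0.70 ± 1.30 (interval -3.55 to 2.15, limma adjusted p = 0.844), and without CNO replicate 1 it was 0.17.

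Itgam (chromosome 7 at 128062640 to 128118491) encodes CD11b, which pairs with the product of Itgb2 to form complement receptor 3 for C3 fragments. It had 8059, 2325 and 8111 normalized counts in CNO 1, 2 and 3, against 5214, 6343 and 6902 in saline 3, 4 and 5. CNO 2 stood below all saline libraries and the other 2 CNO libraries stood above them. The log2 fold change was -0.20 ± 0.51 (interval -1.30 to 0.91, limma adjusted p = 0.891), and 0.40 without CNO replicate 2. A second gene model of the annotation, Gm49368, lies on the same strand over Itgam, and the table analysed has no row of that name. Itgam was 7.14%, 3.81% and 4.51% of the summed microglia markers in CNO, against 4.98%, 6.26% and 4.69% in saline. C3ar1 was 4.34%, 2.05% and 1.39% of that sum in CNO, against 2.11%, 2.45% and 1.70% in saline. Both receptors thus overlapped between groups on this scale too. Microglia markers were lowest in CNO 2, as were C1qb, C3ar1 and Itgam, while C1qa and C1qc were lowest in saline 4 and C5ar1 was highest in CNO 2.

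**Figure D3:**
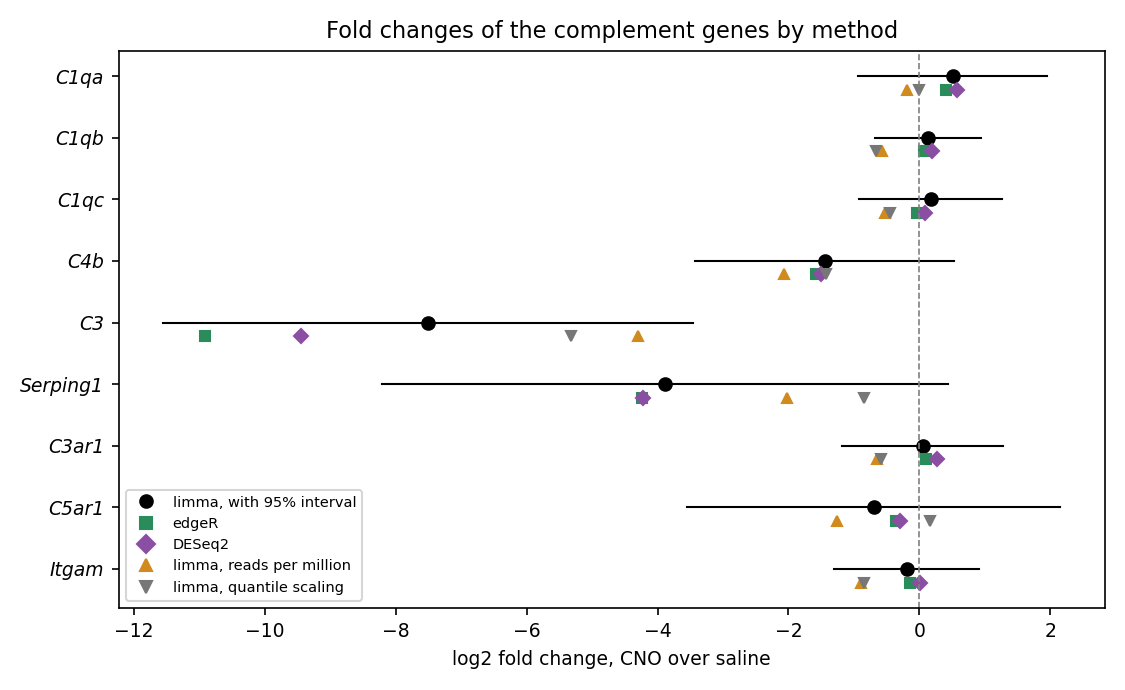
Log2 fold change, CNO over saline (horizontal axis), of the 9 complement genes by limma (black, with its 95% interval), edgeR, DESeq2, and limma after scaling to total reads or quantile scaling. C1qa, C1qb, C1qc, C3ar1, C5ar1 and Itgam lie on both sides of 0 depending on method and scaling, C4b, C3 and Serping1 lie below 0 in each method drawn, and the fitted values of C3 depend on the handling of zeros.

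The remaining complement genes were described from a list of 51 by role. Of these, 14 had no read in any library, 30 entered the test, 0 passed limma in either direction, and their median log2 fold change was -1.54, beside -0.89 over all tested genes. Most of the 30 averaged under 300 normalized counts, a range in which tested genes as a whole were lower too. All tested genes averaging 100 to 300 had a median of -1.44, those of 50 to 100 -2.20 and those of 10 to 50 -2.33. The medians by role below stand beside these values as well. The means that set these ranges include the CNO libraries. At an unadjusted p under 0.05, 5 of the 30 were lower in CNO (7.25% of all tested genes) and 0 higher (2.28%). The same 5, Cfb, C6, Cd55, Itgax and Itgb2, did not overlap between groups (12.5% of all tested genes lay wholly lower), and 1, Csmd3, lay wholly higher (4.57%). Those 5 were named after their values were seen.

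Among 19 genes of recognition and activation, 9 were tested, with a median log2 fold change of -1.47. Colec12, a collectin scavenger receptor, had 2582, 215 and 5753 normalized counts in CNO, against 311, 411 and 381 in saline (log2 fold change 2.01 ± 1.07, limma adjusted p = 0.558). CNO 1 and 3 lay above all saline libraries and CNO 2 below them. Cfb, the protease precursor of the alternative pathway, had 0, 113 and 0 in CNO, against 166, 159 and 254 in saline (limma adjusted p = 0.516). Cfp, properdin, which stabilizes that pathway, had 0, 104 and 281 in CNO, against 72.6, 211 and 99.1 in saline. C2, cleaved beside C4, had 4.23, 178 and 16.5 in CNO, against 78.2, 88.8 and 124 in saline. Cfp and C2 overlapped between groups, and CNO 1 was the lowest library for both. The proteases of the C1 complex were near 0, with C1s1, which overlaps an antisense gene, read in saline 5 alone, at 114 reads, and C1ra at 84 reads in CNO 2 and at most 11 elsewhere. In the terminal pathway, which forms the membrane pore, 5 of 7 genes had no read. C6 had 0 reads in every CNO library, against 235, 1 and 50 in saline 3, 4 and 5, and Hc, the gene of C5, had at most 18 reads in a library.

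Of the 18 regulators, 13 were tested, with a median log2 fold change of -1.57. Clu, clusterin, an inhibitor of the terminal complex that astrocytes make, had 25761, 10085 and 3113 normalized counts in CNO, against 11905, 6698 and 7134 in saline. Its order over the CNO libraries was that of the summed astrocyte markers, 509662, 329572 and 168203 in CNO 1, 2 and 3, against 260413, 174767 and 196177 in saline. Slc1a2 was the most abundant of these markers, averaging 172263 normalized counts, and so weighed most in their sum. Cr1l, the rodent inhibitor Crry, had 625, 872 and 341 in CNO, against 385, 343 and 849 in saline. Csmd3, a large membrane protein with complement control domains, had 554, 599 and 1082 in CNO, against 321, 430 and 409 in saline (limma adjusted p = 0.672). Cd55, which speeds the decay of C3 convertases and has a close copy in Cd55b, had 16.9, 25.2 and 0 in CNO, against 112, 134 and 567 in saline (limma adjusted p = 0.512).

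All 7 further receptors were tested, with a median log2 fold change of -1.51. Itgb2, the shared beta chain that Itgam needs, had 0, 55.5 and 315 normalized counts in CNO, against 560, 478 and 610 in saline (log2 fold change -4.39 ± 1.94, limma adjusted p = 0.522). CNO 1 thus held 1907 reads of Itgam and 0 of Itgb2. In that library, 10.02% of the 3194 genes averaging 300 to 1000 had no read, against 0.0939% to 0.157% in the saline libraries. Itgax, the alpha chain of complement receptor 4, had 0, 5.18 and 0 in CNO, against 90.7, 60.0 and 15.6 in saline (limma adjusted p = 0.498). C5ar2, the second receptor for C5a, had 2210, 106 and 585 in CNO, against 571, 666 and 783 in saline, so its highest library was CNO 1, where C5ar1 was lowest. Cd93, a surface receptor once proposed to bind C1q, had 1640, 1034 and 3626 in CNO, against 817, 1408 and 706 in saline, with overlap. C1qbp, a mostly mitochondrial protein named for binding C1q, had 0, 692 and 522 in CNO, against 731, 383 and 717 in saline.

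**Figure D4:**
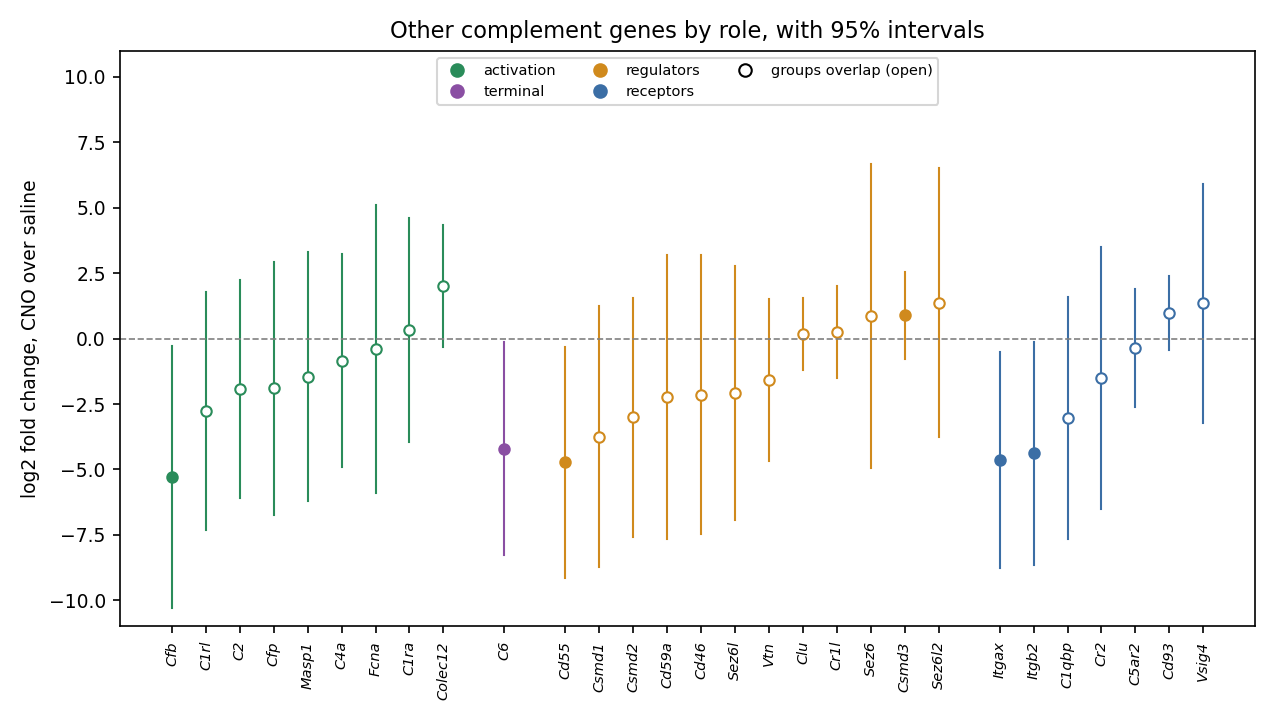
Log2 fold change, CNO over saline (vertical axis), with 95% intervals from limma, of 29 of the 30 tested complement genes beyond the 9, by role. Filled points mark genes whose groups did not overlap, 5 with CNO lower and Csmd3 with CNO higher.

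Fold changes in these libraries followed the level of a gene, so each member was set beside genes of its own level. Tested genes with a mean of 1000 to 3000 had a median log2 fold change of 0.29, and C1qa and C3ar1, in that range, had 0.51 and 0.05. Genes with a mean of 3000 to 10000 had a median of 0.46, and C1qb, C1qc and Itgam there had 0.14, 0.17 and -0.20. Genes with a mean of 300 to 1000 had a median of -0.35, beside -1.45 for C4b. Genes with a mean of 100 to 300 had a median of -1.44, beside -0.70 for C5ar1. C3 lay in the range of 50 to 100, whose median was -2.20, and Serping1 in that of 10 to 50, whose median was -2.33. The ranges were set by the mean over all 6 libraries, so low CNO values themselves move a gene to a lower range. C3, with a saline mean of 187 and 0 in CNO, is such a gene. The range medians are thus not independent of the CNO values set beside them.

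The genes with the most similar profile over the 6 libraries were found by the root mean square difference of log2 values after each gene's mean was subtracted, among 8311 genes that averaged at least 100, leaving out predicted models and clone names. Closest to C1qa were Tgoln1, Actg1, Ctcf and G6pdx, at differences of 0.12 to 0.23. No C1q chain or microglia marker was among these 4. Closest to C3 were Ckap2l, Gpr84, Homez and Mrps35, at 0.40 to 0.55. All 4 of these had 0 reads in CNO 1 and CNO 3, as C3 had, which a choice by likeness to C3 favours. Closest to C4b were Zufsp, Cnot10, Slc25a39 and Rgl1, at 0.19 to 0.34. Closest to Serping1 were Fam175b, Sh2b1, Unc13b and Klhl13, at 0.91 to 0.99, a wider gap than for the other 3 members. The 6 points share their libraries and depths, and these likenesses are descriptions.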

How the data were processed

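RNA of 6 libraries, 3 CNO and 3 saline, was analysed from 1 table of normalized gene counts. Libraries were built with a Revelo kit from 10 ng RNA each, per the labels' protocols. STAR 2.5.0a, DESeq2 1.20.0, Trimmomatic 0.4, MultiQC 0.9 and FastQC 0.10.1 are named, with mm10, in the submitters' processing notes. What each tool did, how reads were counted and whether strand was used is not given in the sources. The authors deposited a signal: reads per gene over a size factor. Every column fell on whole multiples of its smallest step (100% of values, tolerance 1e-04 reads), and so whole reads were recovered. The test was limma 3.58.1 in R 4.3.3 with a variance trend, 2-sided. edgeR 4.0.16, DESeq2 1.42.0 (authors' size factors) and limma-voom ran on recovered reads, and DESeq2 called 242 genes, edgeR 0 with the same genes and 16 with no filter. The limma fit was tested on simulated data. P-values measure the spread between libraries, which may be technical, and floors cover counting error only. Members and lists were chosen with earlier results of these data known. All members were named, and like genes by smallest difference. Other complement genes were to be named by the highest mean level per role (up to 4) and by passing the test, which 0 did. Outside that rule, Cd55 and Itgax, both lower at an unadjusted p under 0.05, and C1s1 and C1ra were named as well. 1 eligible gene is not reported here. Exon lengths and positions are from GENCODE on GRCm38, the assembly of mm10, and promoters from RefSeq. Figures used matplotlib 3.10.9.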

Additional observations from a re-analysis of the deposited data

How the results depend on the processing

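No paired analysis was possible because the groups share only 1 replicate number. Scaling to total reads and a limit to genes read in all libraries were chosen after seeing the data. Against 2 genes called by limma, 0 were called with a mean of at least 50, without a variance trend, with quantile scaling, in edgeR on the same genes, after scaling to total reads, and among genes read in all libraries, 11 with array weights, 16 with edgeR without a filter, 16 with limma-voom and 242 with DESeq2. Calls ran from 0 to 2 with 1 library left out. The count of members called moved only in DESeq2, to 1 (C3), and was 0 to 0 with 1 library left out. Log2 fold changes turned sign as follows, and the cause was not tested. With quantile scaling they were -0.012 for C1qa, -0.66 for C1qb, -0.45 for C1qc, -0.59 for C3ar1 and 0.16 for C5ar1. Scaling to total reads removes the higher normalized totals of the CNO libraries. So scaled, the log2 fold changes were -0.19 for C1qa, -0.56 for C1qb, -0.53 for C1qc and -0.64 for C3ar1. C3ar1 was also -0.073 with TMM scaling, -0.27 with array weights and -0.34 with limma-voom. C1qc was -0.029 in edgeR with the same filter and -0.0018 in limma-voom, and Itgam 0.0026 in DESeq2. With 1 library left out, values ran from -0.13 to 0.41 for C1qb, from -0.095 to 0.61 for C1qc, from -0.44 to 0.55 for C3ar1, from -1.66 to 0.17 for C5ar1 and from -0.50 to 0.40 for Itgam. C4b, C3 and Serping1 kept their sign in every setting that tested them, and C3 had adjusted p of 0.150 to 0.814 in limma with 1 library left out and of 1.37e-04 (DESeq2) to 0.648 over the other settings. Over all tested genes the median of -0.89 became -0.078 with quantile scaling and -0.998 scaled to total reads. In CNO 1 a count of 0 allows up to 12.7 normalized counts, above the level of Serping1 in CNO 2 and saline 4. C3 and Serping1 were not tested among genes read in all libraries, and Serping1 not with a mean of at least 50.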
